A study of Homo sapiens with 6 samples.

Results

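CPT1A, CPT2, SLC25A20, ACADS, ACADM, ACADVL, HADHA, HADHB, ECHS1 and ETFDH encode enzymes and a carrier of mitochondrial fatty acid oxidation. They are 10 of the 58735 Ensembl genes in the count table and were chosen by symbol for their roles in the carnitine shuttle and in β-oxidation. All 10 were among the 15078 genes tested, which had at least 10 counts in at least 3 libraries. RNA came from Meg-01, an established megakaryoblastic leukaemia cell line, and was sequenced in 3 libraries of untreated cells (control) and 3 libraries of cells treated with 500 µM sodium propionate (C3), the salt of a bacterial short-chain fatty acid. The labels give 48 h of treatment, while the study's methods name a shorter incubation as well. The libraries of a group are described as technical replicates, so the p-values measure the spread between these libraries, which need not include that between independent cultures. Totals were 19318595, 18050689 and 16159449 counts in control replicates 1 to 3, and 16513025, 18652292 and 22821722 counts in C3 replicates 1 to 3.

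Long-chain fatty acids cross into the mitochondrial matrix as acylcarnitines. CPT1A on the outer membrane forms them and is the step that malonyl-CoA inhibits, SLC25A20 exchanges them for carnitine across the inner membrane, and CPT2 returns the acyl group to CoA. In the matrix, acyl-CoA dehydrogenases of different chain-length preference, a hydratase, a hydroxyacyl-CoA dehydrogenase and a thiolase shorten the chain, and ETFDH passes electrons from the dehydrogenases to ubiquinone. Blood progenitor cells use this pathway as a source of energy.

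Of 15 megakaryocyte markers, 13 were tested, and ITGA2B was abundant in the control libraries with normalized counts of 12970, 13260 and 12480. A normalized count is the count scaled to the mean effective library size with TMM factors. PF4 and GP1BB had 0 counts in every library. In the annotation, 100% of the exon bases of GP1BB and 52.1% of those of PF4 are shared with other genes of the same strand, so these zeros need not mean absence. GATA1, a transcription factor of the lineage, had normalized counts of 1804, 1878 and 1771 in control and 1966, 1821 and 1759 in C3 libraries, which overlapped.

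The levels of the 10 genes spanned more than an order of magnitude. Levels between genes were compared as CPM, the count relative to the effective library size, per kilobase of the canonical transcript. In control cells, ECHS1 had the highest level with 128 ± 1.99 CPM per kb (SD, n = 3 libraries), followed by HADHA with 126 ± 8.0 and ACADVL with 114 ± 4.83. HADHB had a level of 77.2 ± 3.94, ACADM of 20.4 ± 1.02, CPT1A of 15.2 ± 1.25 and SLC25A20 of 14.5 ± 1.44 CPM per kb. The lowest levels were those of ACADS with 7.12 ± 0.098, CPT2 with 5.92 ± 0.425 and ETFDH with 4.70 ± 0.235 CPM per kb. Among neighbours in this order, the control libraries of ECHS1 and HADHA overlapped, as did those of CPT1A and SLC25A20, and the other neighbours did not overlap. In C3 cells, CPT1A, the entry enzyme, had a level of 21.9 ± 2.76 CPM per kb next to 19.7 ± 1.13 for ACADM, and the libraries of these genes overlapped. The levels of ACADVL and ECHS1 in C3 cells were 125 ± 4.36 and 112 ± 9.58 CPM per kb, with overlapping libraries. These values depend on the length used. With all annotated exons of a gene merged, a length chosen after seeing the data, the control level was 51.7 for ACADVL, 36 for HADHB, 3.36 for ACADM, 1.58 for CPT2 and 0.613 CPM per kb for ETFDH, while that of ECHS1 stayed at 128. ACADM then lay below CPT1A, SLC25A20 and ACADS, at 12.1, 13.6 and 5.08 CPM per kb.

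**Figure D1:**
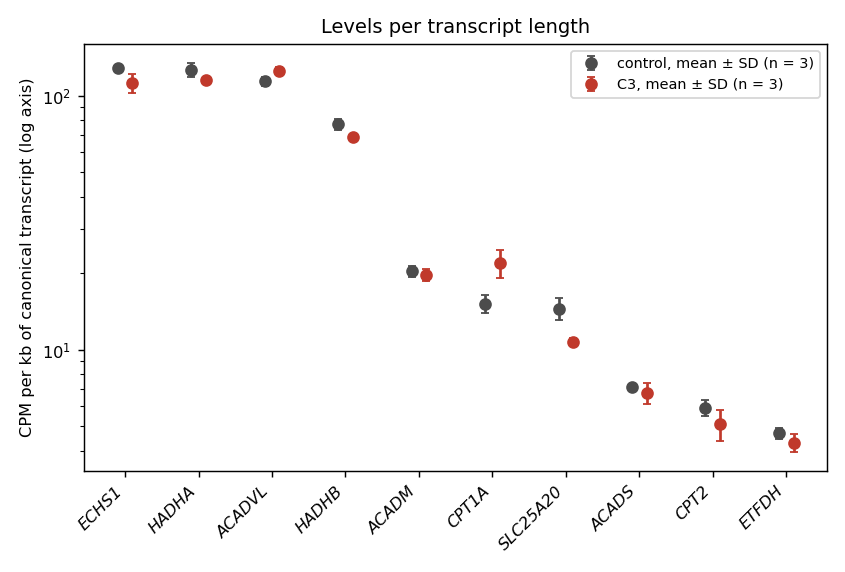
Level of each gene in CPM per kilobase of canonical transcript on a log axis, as mean and SD of 3 control (grey) and 3 C3 (red) libraries, ordered by the control level. The genes run from ECHS1 with 128 to ETFDH with 4.70 CPM per kb in control cells, and CPT1A moved from 15.2 to 21.9.

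In C3 cells CPT1A rose by 44.6% and SLC25A20, the carrier that takes its product across the inner membrane, fell by 26.6%. ECHS1 fell by 12.6%, and the other 7 genes did not pass the test. A gene was called at an adjusted p-value below 0.05 in edgeR's quasi-likelihood test, and as a DEG at an adjusted p-value below 0.01 together with a fold change above 30%. This fold change gate was 1.3-fold in either direction, so a gene that fell by less than 30% can pass it. At the first threshold 1 of the 10 genes was higher and 2 were lower, against 11.0% and 8.77% of all tested genes. By the DEG gates 1 was higher and 1 lower, against 5.05% and 1.47%. The C3 libraries lay entirely on one side of the control libraries for 6 of the 10 genes, compared with 34.4% of all tested genes. With unadjusted p below 0.05, 2 of the genes were higher and 5 lower, against 16.8% and 15.3% of all tested genes. The median log2 fold change of the 10 genes was -0.13, beside 0.0021 over all tested genes, and with library size alone these medians were -0.05 and 0.08. In the TMM-scaled fit 8 of the 10 values were negative, beside 49.6% of all tested genes, and that of ACADM turned to 0.03 when libraries were scaled by size alone. That scaling also changed the split of all called genes, from 1658 higher and 1323 lower (55.6% higher) to 2312 and 609 (79.2% higher).

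**Figure D2:**
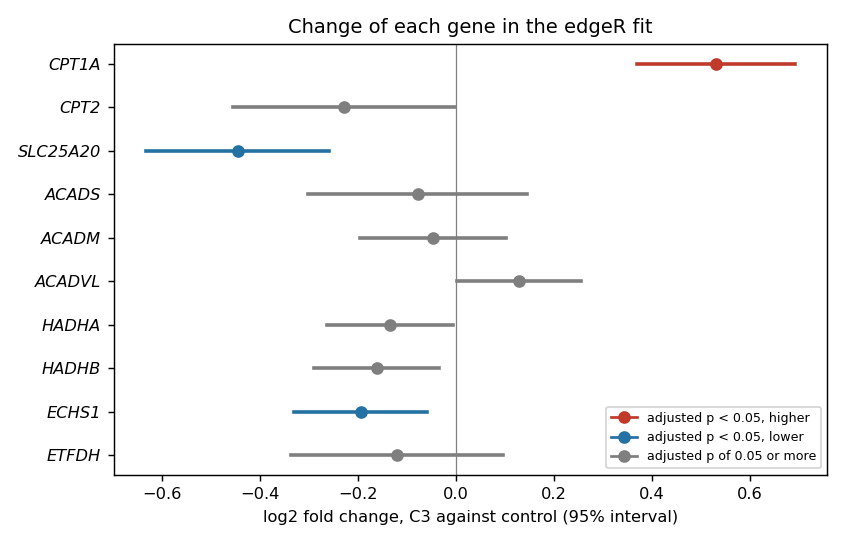
Log2 fold change of C3 against control for each gene (horizontal axis) with its 95% confidence interval from edgeR's quasi-likelihood fit to 3 libraries per group. The intervals of CPT1A (0.37 to 0.69) and SLC25A20 (-0.63 to -0.26) lie farthest from 0, on opposite sides, and that of ACADM (-0.20 to 0.10) spans 0, its value turning to 0.03 with library size alone. The intervals are not adjusted for the number of genes tested. Those of CPT2, ACADVL, HADHA and HADHB also leave out 0, although these genes were not called (edgeR, adjusted p = 0.152, 0.15, 0.14 and 0.0678).

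CPT1A (ENSG00000110090) is transcribed from the reverse strand of chromosome 11 (68754620 to 68844410, GRCh38). Its normalized counts were 1620, 1406 and 1414 in control replicates 1 to 3 and 1888, 2100 and 2423 in C3 replicates 1 to 3. The highest control library was replicate 1, and it stayed below the lowest C3 library. The mean rose from 1480 ± 122 to 2137 ± 269 (SD, n = 3 each), with a log2 fold change of 0.53 ± 0.078 (SE; edgeR's quasi-likelihood test, adjusted p = 2.29e-05), and by p-value CPT1A ranked 209 of all tested genes. The call held in all 14 alternative analyses, with log2 fold changes of 0.43 to 0.62. Since RNA of whole cultures was sequenced, more cells expressing a gene and more RNA per cell cannot be told apart, nor can fewer cells and less RNA per cell. No exon base of CPT1A is shared with another annotated gene.

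The DNA just upstream of CPT1A is shown because CPT1A was the one of the 10 genes called higher. The RefSeq promoter window on GRCh38.p14, from 250 bases before to 50 bases after the annotated start, has a GC content of 50% and 13 CpG sites, beside medians of 58.7% and 14 over 35116 windows. The stretch outside annotated exons is 117 bases long (chr11:68844411-68844527, reverse strand). No part is in capitals, because none of the 6 motifs searched, which are spelled out with the other promoters, occurs in it.
CPT1A: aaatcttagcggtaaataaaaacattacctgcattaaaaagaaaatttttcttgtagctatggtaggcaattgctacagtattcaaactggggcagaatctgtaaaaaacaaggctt

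SLC25A20 (ENSG00000178537), the gene of the carnitine-acylcarnitine carrier, is transcribed from the reverse strand of chromosome 3 (48856926 to 48898904) and shares no exon base with another gene. Its normalized counts were 484.9, 430.5 and 525.4 in the control libraries and 367.6, 346.5 and 344.3 in the C3 libraries. All 3 C3 libraries lay below the lowest control library, and they differed less among themselves than the control libraries did. The mean fell from 480.3 ± 47.6 to 352.8 ± 12.9 (SD, n = 3 each), with a log2 fold change of -0.45 ± 0.091 (SE; edgeR, adjusted p = 0.00099). SLC25A20 remained called as lower in all 14 alternatives, but with library size alone its log2 fold change of -0.37 was short of the fold change gate for DEGs.

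The promoter of SLC25A20, the DEG that fell, differs in composition from that of CPT1A, with a GC content of 67% and 21 CpG sites in the RefSeq window. The stretch outside annotated exons, 228 bases on the reverse strand (chr3:48898905-48899132), holds 2 GC boxes, shown in capitals as GGGCGG or, for a match on the other strand, CCGCCC.
SLC25A20: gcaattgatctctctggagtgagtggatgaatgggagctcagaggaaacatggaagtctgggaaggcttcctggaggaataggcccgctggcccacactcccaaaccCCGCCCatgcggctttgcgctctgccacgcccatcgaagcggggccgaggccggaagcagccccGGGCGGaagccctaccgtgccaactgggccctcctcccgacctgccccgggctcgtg

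CPT2 (ENSG00000157184), which completes the shuttle on the matrix side, had normalized counts of 322.3, 284.2 and 286.6 in control and 297.1, 232.6 and 238.4 in C3 libraries. C3 replicate 1 was within the control range, so the groups overlapped, although the other 2 C3 libraries lay below all control libraries. The log2 fold change was -0.23 (95% confidence interval -0.45 to -0.0017; edgeR, adjusted p = 0.152). Without C3 replicate 1 it was -0.34 (edgeR, adjusted p = 0.0249), the lowest p in a range up to 0.463 over the alternatives by edgeR, DESeq2 and limma-voom. Genes of the other strand share 12.4% of the exon bases of CPT2, and whether reads were counted by strand is not known from the sources at hand.

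Within a library, the ratio of 2 genes does not depend on how libraries are scaled. The log2 ratio of CPT1A to CPT2 counts was 2.33, 2.31 and 2.30 in the control libraries and 2.67, 3.17 and 3.35 in the C3 libraries. The control libraries were almost alike, and every C3 library was higher. The mean log2 ratio differed by 0.75, for which a two-sided exact permutation test gave p = 0.1, the lowest value possible with 3 libraries a group, and 0.3 after Benjamini-Hochberg adjustment over the 3 ratios examined. With each library left out it ranged from 0.61 to 0.95.

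**Figure D3:**
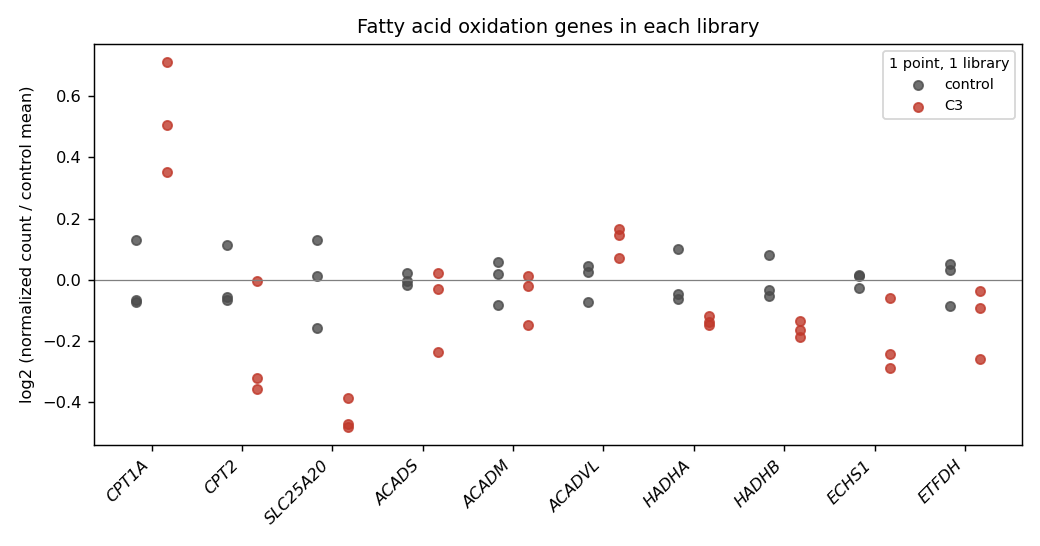
Log2 of the normalized count of each gene divided by its mean over the control libraries (vertical axis), 1 point per library, with 3 control (grey) and 3 C3 (red) libraries. The C3 libraries of CPT1A lie above and those of SLC25A20 below all control libraries, whereas those of CPT2, ACADS, ACADM and ETFDH overlap with them.

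The acyl-CoA dehydrogenases, which start each round of β-oxidation, did not pass the test. ACADVL, for very long chains, had normalized counts of 4786, 4724 and 4419 in control and 5143, 4877 and 5213 in C3 libraries. The C3 libraries were all above the control libraries, at a log2 fold change of 0.13 ± 0.062 (SE; edgeR, adjusted p = 0.15). With library size alone, edgeR called ACADVL higher, at a log2 fold change of 0.20 and adjusted p = 0.0169, the lowest in a range up to 0.392 over the alternatives. ACADM, for medium chains, had normalized counts of 813.1, 896.1 and 872.8 in control and 777.4, 848.9 and 867.3 in C3 libraries, and ACADS, for short chains, had 245.9, 250.3 and 243.6 against 250.4, 209.6 and 241.5. Both sets of libraries overlapped. Their log2 fold changes were -0.05 (95% confidence interval -0.20 to 0.10) and -0.08 (-0.30 to 0.15), and edgeR gave adjusted p = 0.705 and 0.669. For ACADM, library size alone turned the value to 0.03. ACADM shares 1.14% of its exon bases with RABGGTB on the same strand and 9.83% with genes of the other strand, and ACADVL shares 1.02% with DLG4 on the other strand.

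The log2 ratio of ACADVL to ACADM counts was 2.56, 2.40 and 2.34 in control and 2.73, 2.52 and 2.59 in C3 libraries. C3 replicate 2 lay below control replicate 1, and the other C3 libraries lay above all control libraries. The mean log2 ratio differed by 0.18 (two-sided exact permutation test, p = 0.2, adjusted p = 0.3).

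HADHA and HADHB encode the α and β subunits of the mitochondrial trifunctional protein, which carries out the last steps of a round on long chains. HADHA had normalized counts of 6630, 6708 and 7426 in control and 6375, 6253 and 6288 in C3 libraries. HADHB had 2767, 2802 and 3036 in control and 2613, 2562 and 2519 in C3 libraries. For both subunits the C3 libraries lay below all control libraries, and control replicate 3 was the highest. The log2 fold changes were -0.13 ± 0.063 (SE) for HADHA and -0.16 ± 0.062 for HADHB, and with adjusted p = 0.14 and 0.0678 by edgeR neither passed. HADHB was called lower by DESeq2 (adjusted p-value 0.0431) and by edgeR without C3 replicate 1 (0.0319), in a range of 0.0319 to 0.325 over the alternatives. The log2 ratio of HADHA to HADHB was 1.270 ± 0.0174 in control and 1.298 ± 0.0189 in C3 cells (SD, n = 3 each), with overlapping libraries and p = 0.3 for the difference of 0.028 in the exact permutation test, also after adjustment. The genes are neighbours on chromosome 2 and are read in opposite directions from RefSeq starts at 26244632 (HADHA) and 26244939 (HADHB), with 306 bases between them, so their promoter windows share sequence.

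ECHS1 (ENSG00000127884), the hydratase for short and medium chains, is transcribed from the reverse strand of chromosome 10 (133362485 to 133373354) and shares no exon base with another gene. Its normalized counts were 3070, 3064 and 2985 in the control and 2918, 2491 and 2567 in the C3 libraries. C3 replicate 1 was close to the control libraries and the other C3 libraries were clearly lower, with no overlap of the groups. The mean fell from 3040 ± 47.3 to 2659 ± 228 (SD, n = 3 each), with a log2 fold change of -0.19 ± 0.066 (SE; edgeR, adjusted p = 0.0367). The call of ECHS1 was not robust. By edgeR, adjusted p was 0.12 without control replicate 1, 0.136 without control replicate 2, 0.195 without C3 replicate 2 and 0.19 without C3 replicate 3, and also missed 0.05 with upper quartile factors (0.0542) and library size alone (0.166). Over all alternatives it ranged from 0.0012, without C3 replicate 1, to 0.195.

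ETFDH (ENSG00000171503), which links the dehydrogenases to the respiratory chain, had normalized counts of 278.2, 256.6 and 281.8 in control and 227.6, 255.5 and 265.1 in C3 libraries. The groups overlapped, and C3 replicate 1 was the lowest library. The log2 fold change was -0.12 (95% confidence interval -0.34 to 0.10; edgeR, adjusted p = 0.468). ETFDH shares 7.06% of its exon bases with genes of the other strand and 0.918% with a gene of the same strand.

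Added over the 10 genes, the level was 1129, 1118 and 1154 CPM in the control libraries and 1120, 1084 and 1126 CPM in the C3 libraries. These sums overlapped. With library size alone they were 1111, 1088 and 1114 CPM in control and 1110, 1130 and 1172 CPM in C3 libraries, where C3 replicates 2 and 3 were above all control libraries and C3 replicate 1 was within their range.

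RefSeq promoter windows were found for 9 of the 10 genes, with 2 windows for ACADVL. They were searched on both strands for AGGTCA (nuclear receptor half-site), TCAAGGTCA (a longer element that contains it, bound by oestrogen-related receptors), TGACGTCA (cyclic AMP response element), CACGTG (E-box), GGGCGG (GC box) and CCAAT. The GC box occurred in 8 of the 10 windows and in 45% of all windows. It was missing from the window of CPT1A and from 1 of those of ACADVL, which also had the lowest GC contents of the set, 50% and 52.7%, while the other windows reached up to 78% (ECHS1). The windows of HADHA and HADHB overlap, and the only GC box of HADHA is the same site as 1 in HADHB. These windows are therefore not separate cases. None of the 10 windows held AGGTCA (in 13.8% of all windows), TCAAGGTCA (0.353%), TGACGTCA (1.85%), CACGTG (7.26%) or CCAAT (34.6%). These are matches of letters in windows of fixed length and say nothing of the factors that bind there.

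Other genes of the pathway were described in 6 lists of 119 genes, of which 95 were tested. Of these, 11 were higher and 12 lower in C3 cells, again to be read against 11.0% and 8.77% of all tested genes, and 3 higher and 5 lower genes were DEGs, against 5.05% and 1.47%. The median log2 fold change was -0.02, which ranged from -0.05 without C3 replicate 1 to 0.05 with library size alone. Without C3 replicate 3, edgeR's test called 3 of them higher and 6 lower.

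Among 12 tested genes of 14 further mitochondrial β-oxidation enzymes, 10 had a negative log2 fold change, beside 49.6% of all tested genes. The median was -0.16, and with library size alone 9 were negative with a median of -0.091. By edgeR's test 1 gene of the list was called lower and 0 were called higher, beside 8.77% and 11.0% of all tested genes. With unadjusted p below 0.05, 7 were lower and 0 higher, against 15.3% and 16.8% of all tested genes, and DESeq2 and limma-voom also called 0 higher. HADH, the short-chain hydroxyacyl-CoA dehydrogenase, had normalized counts of 1285, 1355 and 1272 in control and 1212, 1083 and 1077 in C3 libraries, without overlap. Its log2 fold change was -0.22 (edgeR, adjusted p = 0.025), and the call was lost with library size alone (0.138) and without control replicate 1 (0.0666), control replicate 2 (0.145), C3 replicate 2 (0.107) or C3 replicate 3 (0.157), in a range of 0.00309 to 0.157. ETFB, a subunit of the flavoprotein that delivers electrons to ETFDH, had a log2 fold change of -0.24 (edgeR, adjusted p = 0.0565). It was called without C3 replicate 1 (0.00912), without control replicate 3 (0.0482) and with the replicate number as a block (0.0176), in a range up to 0.371, and 5.19% of its exon bases are shared with a gene of the same strand. Without C3 replicate 1, 5 genes of this list were called lower, beside 1891 of the 14865 genes tested in that fit.

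The genes of fatty acid entry, activation and carnitine supply were called in both directions, with 4 higher (SLC27A1, SLC27A5, ACSL4 and ACSL6) and 5 lower (ACSL5, SLC27A2, SLC22A5, FABP5 and TMLHE) of 21 tested, beside 11.0% and 8.77% of all tested genes, and a median log2 fold change of -0.013, which ranged from -0.054 without C3 replicate 2 to 0.06 with library size alone. Without C3 replicate 3, edgeR called 2 higher and 2 lower, and without control replicate 1 or 2 it called 1 higher and 3 lower. Calls were lost for SLC27A5 in 7 of 14 alternatives, for FABP5 in 8, for TMLHE in 7, for ACSL4 in 3 and for ACSL6 in 4 of 13, and the libraries of SLC27A5 overlapped. ACSL5, an acyl-CoA synthetase that activates long chains, had normalized counts of 1016, 1076 and 1140 in control and 713.6, 625.9 and 650.9 in C3 libraries. The groups were far apart, and the log2 fold change was -0.70 ± 0.074 (SE; edgeR, adjusted p = 2.02e-07). Genes of the other strand share 8.85% of its exon bases, 19.9% of those of SLC27A2 and 16.5% of those of SLC27A5, and a gene of the same strand shares 12.6% of those of ACSL6. SLC27A1, a fatty acid transport protein, rose from 174.3 ± 20.6 to 239.5 ± 10.4 normalized counts (SD, n = 3 each; edgeR, log2 fold change 0.45, adjusted p = 0.00708). It kept its call in all 14 alternatives but missed the DEG gates in 5, those of DESeq2 and without control replicate 2 or 3 or C3 replicate 2 or 3. SLC27A2 of the same family fell, with a log2 fold change of -0.29 (edgeR, adjusted p = 0.00472). The carnitine transporter SLC22A5 fell from 389.4 ± 7.34 to 307.1 ± 11.3 normalized counts (SD, n = 3 each; edgeR, adjusted p = 0.00796), a call lost without C3 replicate 3 (0.0644, the highest in a range from 0.00443). CPT1B and CPT1C, the other forms of CPT1A, had at most 10 and 8 counts in a library and were not tested. CPT1B shares 66.4% of its exon bases with the readthrough gene CHKB-CPT1B.

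In the peroxisomal list, edgeR called 3 of 15 tested genes lower and 0 higher, beside 8.77% and 11.0% of all tested genes. The median log2 fold change was -0.091, or -0.016 with library size alone and -0.059 without control replicate 3. With unadjusted p below 0.05, 4 were lower and 2 higher, to be read against the same 15.3% and 16.8%. DESeq2 and limma-voom called 0 higher, library size alone 2. HACL1, which cleaves branched and hydroxylated acyl-CoAs, and ACOT8, an acyl-CoA thioesterase, were DEGs with log2 fold changes of -0.46 and -0.39 and were called in all 14 alternatives, with 15.4% and 34.2% of their exon bases shared with genes of the other strand. HACL1 missed the DEG gates in 2 of these alternatives and ACOT8 in 6, among them library size alone. Among 7 tested genes of 18 other PPAR-responsive genes, 1 was called, beside 19.8% of all tested genes. The list median log2 fold change was -0.084, or -0.010 with library size alone. ACOT2, a mitochondrial thioesterase, was the gene called, with a log2 fold change of -0.40 (edgeR, adjusted p = 0.000213). It was called in all 14 alternatives and missed the DEG gates with library size alone and without control replicate 2. ME1, the cytosolic malic enzyme, was next by p-value, with a log2 fold change of -0.12 (edgeR, adjusted p = 0.295) and overlapping libraries. ACOT1 is a close copy of ACOT2, and reads that match both could have been divided between them or left out. How such reads were counted is not known from the sources at hand. PDK4 and ANGPTL4, typical PPAR targets, had at most 7 and 3 counts in a library. UCP2 and PLIN2 of the same list had control means of 2875 and 608.9 normalized counts. Neither was called (edgeR, adjusted p = 0.375 and 0.853).

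Of 29 tested regulators, 6 were higher and 2 lower, beside 11.0% and 8.77% of all tested genes. Among those higher were PRKAA1, PRKAA2, PPARD, PPARGC1B and TFEB, and those lower were MLYCD and SIRT1. The median log2 fold change was 0.0054, which ranged from -0.014 without C3 replicate 1 to 0.079 with library size alone. MLYCD, which breaks down malonyl-CoA, the inhibitor of CPT1A, had normalized counts of 268.4, 287.4 and 285.4 in control and 195.8, 201.9 and 180.4 in C3 libraries. All C3 libraries were lower, with a log2 fold change of -0.54 ± 0.11 (SE; edgeR, adjusted p = 0.000745). Genes of the same strand share 12.9% of the exon bases of MLYCD. PRKAA1 and PRKAA2 encode the catalytic subunits of AMP-activated protein kinase. PRKAA1 rose from 608.3 ± 11.4 to 747.2 ± 55.9 normalized counts (SD, n = 3 each; edgeR, adjusted p = 0.00608). PRKAA2, at a low level, had 26.45, 32.87 and 26.27 normalized counts in control and 35.28, 58.38 and 76.85 in C3 libraries. They did not overlap, and the log2 fold change was 1.02 (edgeR, adjusted p = 0.00785). Both calls were lost without C3 replicate 3, with adjusted p = 0.0644 for PRKAA1 and 0.135 for PRKAA2 by edgeR, the highest of ranges that start at 0.000884 and 0.000404. Without that library, all 6 regulators called higher lost their call. Over the 14 alternatives TFEB lost its call in 6, PPARD in 4 and PPARGC1B in 3. PRKAA2 missed the DEG gates in 7 of 13 alternatives, and MLYCD did without C3 replicate 3. SIRT1, a deacetylase, lost its call in 8 of 14 alternatives. The nuclear receptor PPARG and the coactivator PPARGC1A had at most 9 and 8 counts in a library. PPARA, RXRA and ESRRA had control means of 425.2, 1837 and 2412 normalized counts. None of them was called (edgeR, adjusted p = 0.965, 0.593 and 0.964).

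Of 11 tested lipid droplet genes, edgeR called 1 higher and 0 lower, beside 11.0% and 8.77% of all tested genes. The called gene was MGLL, which releases the last fatty acid from monoglycerides. The list median log2 fold change was 0.00056, which ranged from -0.056 without C3 replicate 1 to 0.075 with library size alone. MGLL had normalized counts of 65.63, 42.42 and 77.61 in control and 146.8, 138.8 and 109 in C3 libraries. The groups did not overlap, and the log2 fold change was 1.08 ± 0.19 (SE; edgeR, adjusted p = 0.000191). ABHD5, the coactivator of the triglyceride lipase PNPLA2, had normalized counts of 582.9, 478.3 and 545.7 in control and 433.6, 465.1 and 469.7 in C3 libraries. Its C3 libraries lay below all control libraries, at a log2 fold change of -0.23 (edgeR, adjusted p = 0.0614). ABHD5 was called lower with the replicate number as a block (0.0421) and without control replicate 2 (0.0362), in a range up to 0.336.

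**Figure D4:**
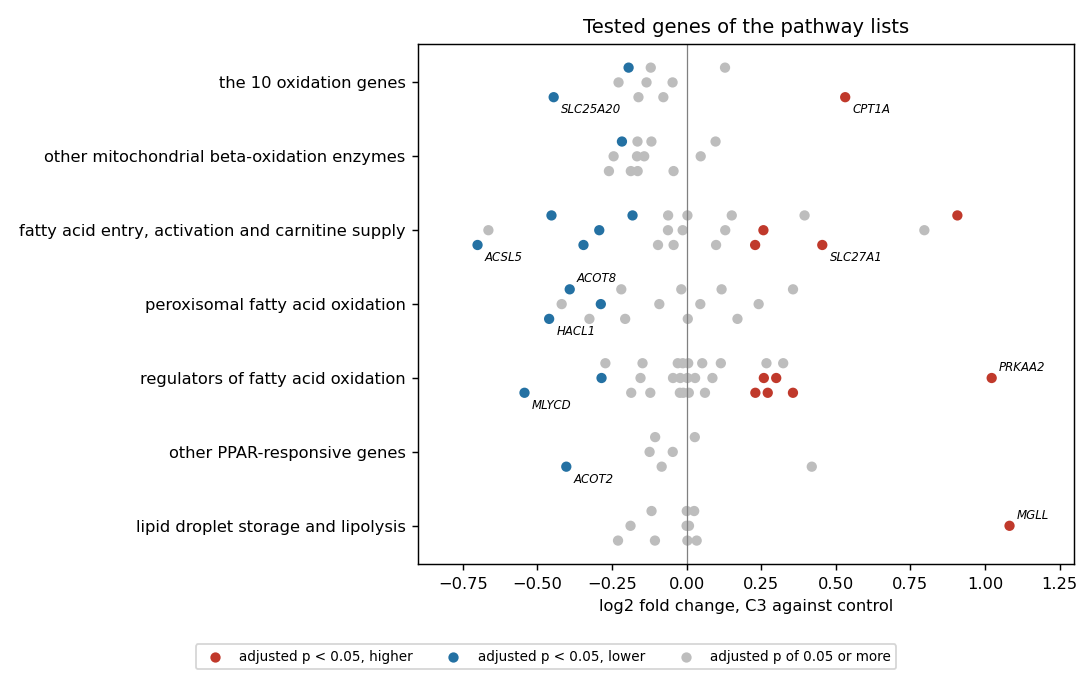
Log2 fold change of C3 against control (horizontal axis) for every tested gene of the 10 oxidation genes and the 6 other lists, 1 point per gene, coloured by edgeR's call, with DEGs named. Of 12 further mitochondrial enzymes 10 lie left of 0, beside 49.6% of all tested genes, or 9 with library size alone. The outermost DEGs are ACSL5 at -0.70 and MGLL at 1.08.

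Of 10 markers of other blood lineages 4 were tested, and 1 of these, LYZ, was called, beside 19.8% of all tested genes. The summed level of the list was 49.83, 49.84 and 47.97 CPM in control and 38.94, 37.68 and 37.4 CPM in C3 libraries. LYZ had the most counts and was lower (log2 fold change -0.51; edgeR, adjusted p = 4.65e-05), and MS4A1 and FCGR3A were at 0. MPO, CD79A and CD3E, also tested, had control means of 222.5, 65.88 and 9.385 normalized counts. They were not called (edgeR, adjusted p = 0.228, 0.857 and 0.333). Genes of the other strand share 34.7% of the exon bases of LYZ. The 9 erythroid markers, 8 of them tested, summed to 67.14, 60.09 and 63.17 CPM in control and 67.86, 66 and 70.34 CPM in C3 libraries, and the megakaryocyte markers to 1929, 1949 and 1865 CPM against 1893, 1764 and 1805 CPM. KLF1 had the most counts in the erythroid list, in which ALAS2 was called higher, a call lost in 5 of 14 alternatives. Of the megakaryocyte markers ITGB3 was called higher, which was lost in 6 alternatives and of whose exon bases 33.2% are shared with a gene of the same strand, and GP1BA and NFE2 were called lower in all 14. The part of these shifts in the changes of the oxidation genes was not tested.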

How the data were processed

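The deposited values are raw read counts per Ensembl gene, one column per library. The authors trimmed reads with fastp, aligned them to GRCh38 with STAR (2.6.1d) and obtained counts with featureCounts (1.5.0-p3), according to the submitters' processing notes. The annotation release and whether counting used strand are not known from these sources. Genes reaching 10 counts in 3 or more libraries were tested with edgeR (4.0.16, in R 4.3.3) by its quasi-likelihood test on TMM-scaled counts, without a replicate block, and p-values were adjusted by Benjamini-Hochberg over 15078 genes. Pairs of libraries within a group differed beyond sampling noise, with chi-square values of 2.42 or more relative to the degrees of freedom, so none was counted as a copy. For abundant genes the spread between libraries, a coefficient of variation of 6.21%, limits precision, and for genes near 50 counts counting error does. Symbols, exon overlaps and transcript lengths came from GENCODE release 44, which matched 58207 identifiers, and promoter windows from RefSeq (GRCh38.p14). Alternatives were DESeq2 (1.42.0), limma-voom (limma 3.58.1), RLE factors, upper quartile factors, library size alone, testing without a count filter or with a mean count of 50 or more, a replicate block, and each library left out. The scripts were tested on simulated data. The genes, lists and tests were chosen with earlier results of these data known. The genes named are the 10 oxidation genes and, in each of the 6 other pathway lists, the DEGs and the 2 genes with the smallest p-values, while others called, or too low to be tested, may be named. UCP2, PLIN2, PPARA, RXRA and ESRRA, tested but not called, are named for their levels. The lists of further mitochondrial enzymes, entry and activation, peroxisomal oxidation, regulators, PPAR-responsive genes, lipid droplets and lineage markers were written by hand. Some genes of these lists are counted but not reported by name here.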

Additional observations from a re-analysis of the deposited data

How the results depend on the processing

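CPT1A and SLC25A20 kept their direction and call in all 14 alternatives. ACADM turned from -0.047 to 0.02854 with library size alone, and no other oxidation gene changed direction. Library size alone also gave 2 oxidation genes called higher, 1 called lower, 1 DEG and a median log2 fold change of -0.05236. Upper quartile factors left 1 called lower. With each library left out, 1 to 4 were called lower, most without C3 replicate 1, and the median ranged from -0.1583 to -0.0905. In the 6 other lists, DESeq2 called 7 genes higher, and with each library left out 3 to 11 were called higher, 6 to 18 lower and 4 to 9 were DEGs, with the fewest in either direction without C3 replicate 3. Over all tested genes, 1053 to 1860 were then higher and 591 to 1891 lower. The cause of these changes was not tested. In their deviations from the group means, same-numbered control and C3 libraries correlated at 0.0492, -0.0588 and 0.0382. These values did not show a pairing by replicate number, but with 3 libraries a group they cannot exclude one. With the number as a replicate block, 1 oxidation gene was called higher and 2 lower, as without it, and 17 genes of the other lists were lower in place of 12. Level ranks with merged exon lengths, an alternative chosen after seeing the data, placed ACADM at 8 in place of 5, SLC25A20 at 5 in place of 7 and ACADS at 7 in place of 8. PRKAA2 has no value at a mean count of at least 50. Counting error matters more for genes with low counts, such as PRKAA2 and MGLL.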
